A study of Homo sapiens with 6 samples.

Results

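The serpins are a family of protease inhibitors, and the genes described here are the 35 of 50868 genes in the table whose symbol is SERPIN followed by a clade letter from A to I and a number. The clade letter groups serpins by sequence: 11 of the 35 genes are in clade A, 13 in clade B, 3 in clade E, 2 each in clades F and I, and 1 each in clades C, D, G and H. Transcripts were counted by mRNA sequencing in 6 libraries of B4G12, a line established from human corneal endothelium, the sheet of cells lining the inner face of the cornea and keeping it clear by pumping out water. Cells of genotype WT given a control siRNA made up 3 libraries (siControl), and NAMPT knockdown cells given an siRNA against NAMPT made up the other 3 (siNAMPT). Both groups were therefore treated with siRNA, and siRNA sequence, dose and harvest time are not stated in the labels. NAMPT is the rate-limiting enzyme of NAD salvage, and the comparison asks how serpin transcripts differ when it is depleted.

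A serpin offers its target protease a flexible reactive centre loop as bait. Once cut, the loop folds into the body of the serpin and drags the protease with it, which leaves an inactive complex that receptors of the LDL receptor family such as LRP1 take up. Clade B serpins mostly stay inside the cell and are abundant in stratified epithelia, most other clades are secreted, and a few members, among them SERPINB5, SERPINF1 and SERPINH1, do not inhibit proteases and have other tasks. In the eye, serpins and the plasminogen activators they block are known for their part in matrix turnover and wound repair.

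NAMPT itself had 3480, 3603 and 3996 counts after the control siRNA and 594, 572 and 673 after its own, so every library matched its label. The change came to −2.60 (SE 0.07) on the log2 scale, edgeR adjusted p = 2.60e-06. Total counts ranged from 19510796 to 22364717 per library. Throughout, levels are CPM (counts scaled to a common library size, adjusted by TMM), a fold change is siNAMPT relative to siControl on the log2 scale, and a gene is said to have risen or fallen where edgeR's quasi-likelihood test gave a Benjamini-Hochberg adjusted p under 0.05 over all 15213 genes tested. The labels do not say whether replicates were separate cultures, so these p-values measure the spread between these libraries, which may be technical. By edgeR's test 20.8% of all genes tested rose and 21.9% fell, 42.7% in all. Every count of risers and fallers in a list below is to be read beside these shares.

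The markers of the labelled cell type were only in part present. Of 12 corneal endothelium markers, 8 passed the filter on low counts, with a summed level of 208.9 to 216 FPKM in siControl and 226.5 to 231.8 FPKM in siNAMPT. CA2, a carbonic anhydrase, stood at 58.3 FPKM in siControl, whereas COL8A2, SLC4A4 and NCAM1 had at most 8 counts in any library. All 12 stratified epithelium markers passed, among them KRT14 at 544 FPKM and KRT5 at 236 FPKM in siControl, and their sum was 1975 to 2143 FPKM in siControl and 2052 to 2288 FPKM in siNAMPT. Of these epithelial markers 6 rose and 3 fell, and of the endothelial ones CA2 rose and CDH2 fell. Markers of other cell types were low in every library. Their sums were 1.19 to 1.37 FPKM in siControl and 1.99 to 2.16 FPKM in siNAMPT for fibroblasts (9 genes, KERA at 0), and 0.853 to 1.01 and 1.196 to 1.34 FPKM for vascular endothelium (6 genes, KDR at 0). For leukocytes (8 genes) they were 1.77 to 2.34 and 3.96 to 4.76 FPKM, most of it CD68, with PTPRC at no more than 2 counts. Because clade B serpins are themselves products of stratified epithelia, these sums belong beside each clade B value below, and their part in it was not tested. In bulk RNA, fewer cells of a type and less RNA per cell cannot be told apart.

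Of the 35 serpins, 16 had enough counts to be tested. A total of 9 rose and 4 fell after NAMPT depletion, and the test called 3 neither way. Among all genes tested, 20.8% rose and 21.9% fell, 42.7% in all, so changes of expression were common in this comparison and a single called serpin is not unusual. For 12 of the 16 the siNAMPT libraries lay all above or all below the siControl libraries, which held for 54.9% of all genes tested. The median fold change of the 16 was 0.43, beside 0.00 over all genes. The risers included SERPINB3, SERPINB4, SERPINB5, SERPINB6, SERPINB7, SERPINF1, SERPINF2 and SERPINI1, and SERPINB1, SERPINB2, SERPINB8 and SERPINH1 were the fallers. The filter needs 0.463 CPM in any 3 libraries. SERPINB4 and SERPINF1 met that level in all 3 siNAMPT libraries but not in all 3 siControl libraries. Without the siNAMPT group they would not have passed, so a difference in those 2 genes was partly built into their selection.

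**Figure D1:**
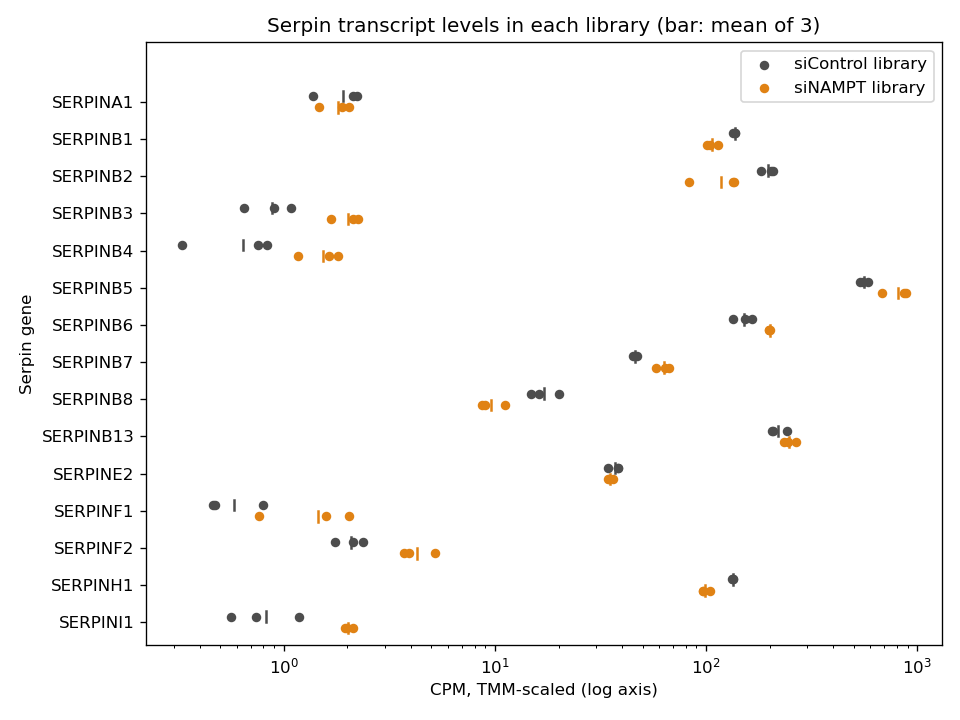
Level of the serpin genes described in each of the 6 libraries, in TMM-scaled CPM on a log axis, with a vertical bar at the mean of each group of 3. The 3 siNAMPT points of SERPINH1 sit between 96.3 and 104 CPM, clear of the siControl points at 133 to 134 CPM, whereas those of SERPINE2, SERPINA1, SERPINB13 and SERPINF1 overlap with siControl.

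**Figure D2:**
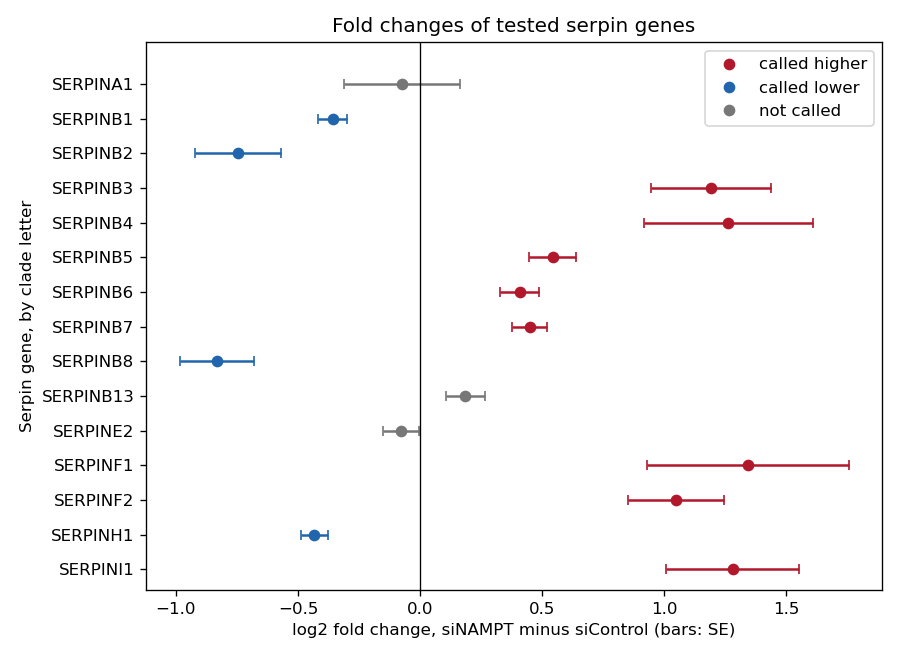
Fold change of the tested serpins described, as siNAMPT minus siControl on the log2 scale, with bars of 1 SE, coloured by call. The fallers lie between −0.83 and −0.36, and the 5 largest rises shown are of genes with means under 5 CPM, whose bars are wide.

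Serpins of the plasminogen system changed in both directions. SERPINB2 (PAI-2) inhibits the plasminogen activators uPA and tPA, chiefly uPA, but most of it remains in the cytosol. It fell. Levels were 207, 182 and 203 CPM in siControl and 83.2, 134 and 135.5 CPM in siNAMPT. All siNAMPT libraries were below all siControl libraries, and the first siNAMPT library was the lowest by a wide margin. The log2 fold change was −0.75 (SE 0.18), edgeR adjusted p = 0.0121, and it was −0.55 with adjusted p = 0.00230 without that library. The SERPINB2 locus (chromosome 18, 63871692 to 63903890) shares 6717 bases on the same strand with SERPINB10, which had 4 to 12 counts per library.

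The promoter of SERPINB2 is shown because this gene had the largest fall in CPM among the serpins. It is taken from RefSeq (GRCh38.p14, plus strand, 250 bases before to 50 after the start) and written 5′ to 3′. Capitals mark matches to 3 of 5 motifs searched on both strands. These are TATAAA (the TATA box), TGANTCA (a loose form of the AP-1 site, with N any base) and CAGACA (the CAGA box that SMAD proteins bind). TGTCTG in capitals is CAGACA on the other strand.
SERPINB2, chr18:63887455-63887754: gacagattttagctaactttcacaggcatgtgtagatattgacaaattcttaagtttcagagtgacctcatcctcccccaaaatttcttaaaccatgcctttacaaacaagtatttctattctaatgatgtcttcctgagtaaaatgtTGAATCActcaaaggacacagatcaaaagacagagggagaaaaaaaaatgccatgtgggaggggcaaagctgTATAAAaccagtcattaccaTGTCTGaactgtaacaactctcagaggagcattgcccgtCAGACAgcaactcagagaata
The TATAAA match begins 30 bases before the annotated start. The other motifs, GGGCGG (the GC box) and CACGTG (the E-box), have no match in this window. No motif searched contains another.

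SERPINF2, the plasma inhibitor of plasmin itself, was low but rose. Its levels of 1.74, 2.36 and 2.12 CPM in siControl compare with 5.22, 3.71 and 3.92 CPM in siNAMPT, without overlap. The log2 fold change was 1.05 (SE 0.20), edgeR adjusted p = 0.00442. SERPINI1 (neuroserpin), a tPA inhibitor best known from neurons, also rose, by 1.28 (SE 0.27) on the log2 scale with edgeR adjusted p = 0.00778. It had 12, 25 and 16 counts in siControl and 44, 42 and 44 in siNAMPT, so its groups did not overlap at a level near the limit of counting. SERPINE2 (protease nexin-1), which inhibits thrombin and the plasminogen activators at the cell surface, was not called. It had 38.4, 34.3 and 38.1 CPM in siControl and 34.2, 36.1 and 34.7 CPM in siNAMPT, with a log2 fold change of −0.08 (SE 0.07) and edgeR adjusted p = 0.416.

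The proteases and receptors on the other side of this system did not move one way. Of 9 plasminogen activation genes 7 were tested, of which 2 rose, 2 fell and 3 were not called (median fold change 0.12). PLAT, which encodes tPA, rose from 12.7, 10.9 and 11.8 CPM to 24.3, 22.6 and 21.3 CPM, a log2 fold change of 0.95 with edgeR adjusted p = 0.000283. PLAU, which encodes uPA, was not called, at 239 ± 10.3 against 258 ± 14.8 CPM (SD, n = 3 each), with a log2 fold change of 0.12 (SE 0.06). PLAUR, the uPA receptor, fell by 0.78 on the log2 scale, from 22.2 ± 1.09 to 12.9 ± 1.08 CPM (SD, n = 3). Of the plasminogen-binding surface proteins, ANXA2 rose (0.33) and ENO1 fell (−0.35). Plasminogen itself (PLG) did not pass the filter. Transcripts of SERPINF2, SERPINI1 and PLAT thus rose, whereas those of SERPINB2 and PLAUR fell.

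Among the 5 receptors that take up serpin-protease complexes, all of which were tested, 2 rose and 2 fell. LRP1 rose from 340, 334 and 324 CPM to 614, 522 and 541 CPM, a log2 fold change of 0.75 with edgeR adjusted p = 0.000175. SORL1 rose by 0.40, while LRP8 fell by 0.78 on the log2 scale. VLDLR had the largest fall of the list at −2.47 (SE 0.34), but from only 1.14 CPM to 0.199 CPM. Its siNAMPT libraries, at 0.180, 0.152 and 0.264 CPM, lay under the 0.463 CPM of the filter. VLDLR passed through siControl alone, so a difference in this gene was partly built into its selection.

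**Figure D3:**
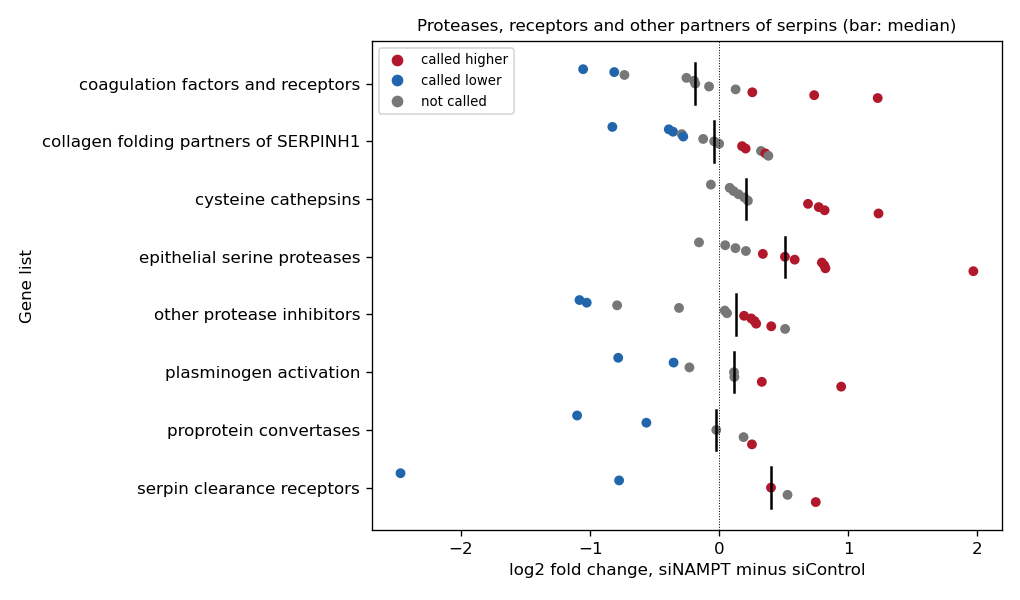
Fold change of each tested gene in 8 lists of proteases, receptors, inhibitors and chaperones that act with serpins, as siNAMPT minus siControl on the log2 scale, coloured by call, with a bar at each list's median. Epithelial serine proteases and cysteine cathepsins hold risers and no fallers, and the other lists hold both. Among all genes tested, 20.8% rose and 21.9% fell.

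Clade B was the best represented, with 9 of its 13 genes tested, of which 5 rose, 3 fell and 1 was not called. SERPINB5 (maspin), a protein of epithelial cells that does not trap proteases, had the highest level per length of all serpins in both groups. It stood at 117.5 FPKM in siControl and 173.7 FPKM in siNAMPT, which was 39.1% and 47.6% of the summed serpin FPKM. In CPM it rose from 555, 535 and 583 to 685, 868 and 884. The groups did not overlap, and the first siNAMPT library was the lowest of its group, as it was for SERPINB2. The log2 fold change was 0.54 (SE 0.10), edgeR adjusted p = 0.00375. Serpins together took 302.3, 289.3 and 309.9 FPKM in siControl and 323, 386 and 386.8 FPKM in siNAMPT. Without SERPINB5 the sums were 186, 177.1 and 185.8 FPKM against 178.6, 199.9 and 196.3 FPKM, and these overlap.

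The promoter of SERPINB5 is shown as that of the most abundant serpin, from the same source, on the plus strand and with the same motifs in capitals. The run GGGCGGGGCGG holds 2 overlapping GGGCGG matches.
SERPINB5, chr18:63476708-63477007: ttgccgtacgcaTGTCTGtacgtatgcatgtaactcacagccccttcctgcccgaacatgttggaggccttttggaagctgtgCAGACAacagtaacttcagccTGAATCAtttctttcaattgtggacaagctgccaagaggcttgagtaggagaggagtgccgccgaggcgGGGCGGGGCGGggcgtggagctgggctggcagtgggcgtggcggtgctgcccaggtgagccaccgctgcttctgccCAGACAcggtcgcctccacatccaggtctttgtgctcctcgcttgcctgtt
Unlike the SERPINB2 window it has no TATAAA match. Of the 16 tested serpins, 13 have promoters in the RefSeq table, 21 in all. Some of these windows overlap, among them windows of SERPINB6, and can hold the same site, so the 21 are not independent. TGANTCA was found in 6 of these 21 promoters (28.6%), which belong to SERPINB2, SERPINB5, SERPINB7, SERPINB8 and SERPINB13, and in 7.71% of all 35116 promoters of the same length. CAGACA was found in 10 of 21 (47.6%), against 16.9% of all promoters, and TATAAA in 5 (23.8%), against 11.5%. These are matches anywhere in the window, and a TATAAA match need not be a TATA box. It begins 30 bases before the annotated start in SERPINB2, but 1 base before it in SERPINB6. In SERPINB7 a match begins 127 bases and in SERPINB8 140 bases before the start, and in SERPINB13 it lies after the start. GGGCGG was in 9 (42.9%) against 45%, and CACGTG in 1 (4.76%), that of SERPINE2, against 7.26%. Counted by gene, CAGACA was found in 8 of the 13, and TGANTCA and TATAAA in 5 each. The near-identical windows of SERPINB3 and SERPINB4 count separately among those 8, and no share by gene was computed for all promoters. The 5 genes with TGANTCA include risers, fallers and a gene that was not called. No entry was found for SERPINF1 or SERPINF2.

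SERPINB3 and SERPINB4 (squamous cell carcinoma antigens) inhibit cysteine cathepsins and chymotrypsin-like proteases, respectively. Both were low and rose, from 23, 19 and 14 to 37, 44 and 48 counts for SERPINB3 and from 16, 7 and 18 to 40, 23 and 37 counts for SERPINB4. Neither gene's groups overlapped in CPM. The log2 fold changes were 1.19 (SE 0.25, edgeR adjusted p = 0.00684) and 1.26 (SE 0.34, edgeR adjusted p = 0.0215). SERPINB4 lost its call without siNAMPT replicate 1 (edgeR adjusted p = 0.0689) or replicate 3 (0.0610). The values of the pair are uncertain one by one, because their coding sequences are identical at 1117 of 1173 positions (95.2%). Their loci as deposited also share 6580 bases on the same strand, though the SERPINB3 locus differs there from that in GENCODE 29. The labels do not say how reads matching both were counted. With the counts of both summed, a check added after the data were seen, the log2 fold change was 1.22 (SE 0.18), edgeR adjusted p = 0.00158.

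The likeness extends to the promoters, which are shown 5′ to 3′ on the minus strand (RefSeq, GRCh38.p14), with the 4 of 300 positions that differ between them in capitals (98.7% identical).
SERPINB3, chr18:63661844-63662143: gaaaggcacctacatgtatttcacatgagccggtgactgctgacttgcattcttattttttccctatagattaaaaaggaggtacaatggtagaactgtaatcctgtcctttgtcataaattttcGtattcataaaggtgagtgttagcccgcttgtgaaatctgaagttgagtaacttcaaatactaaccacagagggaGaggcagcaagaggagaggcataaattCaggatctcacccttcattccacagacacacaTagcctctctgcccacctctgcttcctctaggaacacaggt
SERPINB4, chr18:63644207-63644506: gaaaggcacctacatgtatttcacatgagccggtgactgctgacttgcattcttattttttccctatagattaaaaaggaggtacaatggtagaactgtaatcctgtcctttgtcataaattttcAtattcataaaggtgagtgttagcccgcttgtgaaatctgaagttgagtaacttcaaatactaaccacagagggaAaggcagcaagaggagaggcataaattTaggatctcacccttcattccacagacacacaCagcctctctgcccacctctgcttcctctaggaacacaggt
Motifs are not marked in this pair. Each holds a CAGACA match and neither holds TGANTCA.

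SERPINB7 and SERPINB13 are further epithelial serpins of the chromosome 18 cluster. SERPINB7, whose loss causes a keratosis of palms and soles, rose from 46.9, 45.1 and 46.2 CPM to 58.1, 64.0 and 66.6 CPM without overlap. That is a log2 fold change of 0.45 (SE 0.07), edgeR adjusted p = 0.00216. SERPINB13 (headpin), an inhibitor of cathepsins L and K, had 207.5, 205 and 241 CPM in siControl and 233, 266 and 244.5 CPM in siNAMPT, and the groups overlapped. Its log2 fold change of 0.19 (SE 0.08) was not called (edgeR adjusted p = 0.103), but it was 0.26 with adjusted p = 0.0304 without siControl replicate 3, the highest of its group.

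The remaining tested clade B genes are inhibitors inside many cell types. SERPINB6, which blocks cathepsin G and related proteases, rose from 166, 152 and 134 CPM to 199, 201 and 199.7 CPM, a log2 fold change of 0.41 (SE 0.08) with edgeR adjusted p = 0.00538. SERPINB1, an inhibitor of neutrophil elastase, cathepsin G and proteinase-3, fell from 137, 134.5 and 137 CPM to 104.5, 113 and 101 CPM. Its log2 fold change was −0.36 (SE 0.06), edgeR adjusted p = 0.00272. SERPINB6 and SERPINB1, which lie on chromosome 6 with SERPINB9 between them, thus moved in opposite directions, each without overlap between groups. SERPINB8, an inhibitor of furin, fell from 14.9, 20.2 and 16.2 CPM to 8.64, 11.1 and 8.99 CPM, and here too the groups did not overlap. With a log2 fold change of −0.83 (SE 0.15) and edgeR adjusted p = 0.00403 it had the largest relative fall of the family. Its locus as deposited, which differs from that in GENCODE 29, shares 11850 bases on the same strand with HMSD. That gene had 261 counts over all libraries and was not called.

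Risers and fallers lay in different stretches of the chromosome 18 cluster, a pattern seen after the values were known. Its 10 genes span 528.9 kb, and 7 of them were tested, of which 4 rose, 2 fell and 1 was not called. The risers SERPINB5, SERPINB4, SERPINB3 and SERPINB7 all begin within 276.2 kb of the start of SERPINB5, and the fallers SERPINB2 and SERPINB8 begin at 394.9 kb and 493.2 kb. SERPINB11 was at 0 in all libraries, SERPINB12 had 0 to 3 counts per library, and SERPINB10 lay under the filter too.

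**Figure D4:**
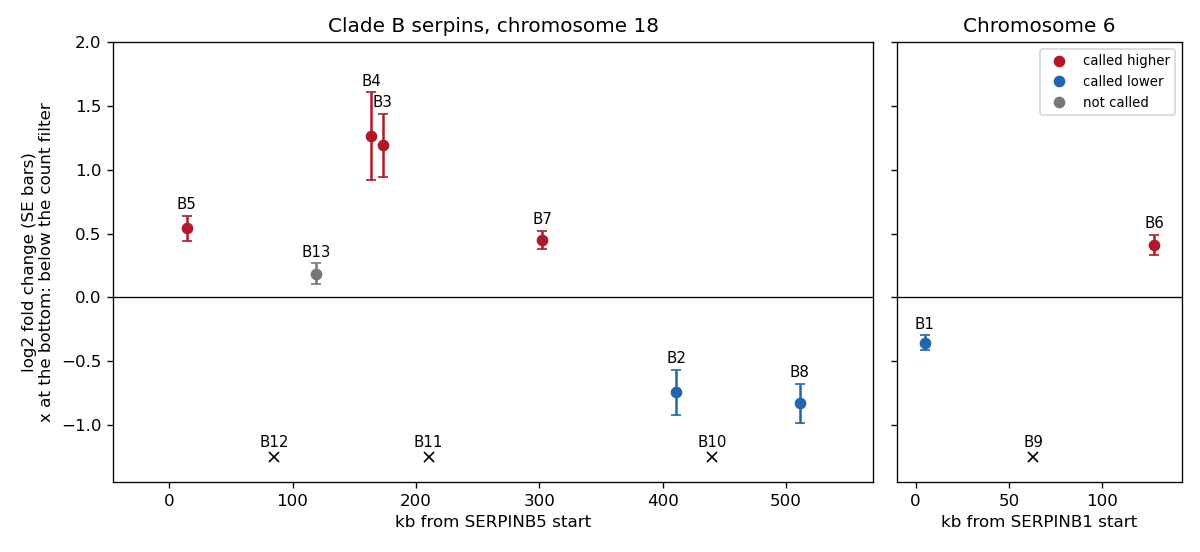
Fold change of clade B serpins (siNAMPT minus siControl, log2, with bars of 1 SE) against the distance in kb of the gene's centre from the start of the first gene, for chromosome 18 (left) and chromosome 6 (right), with B5 standing for SERPINB5 and so on. On chromosome 18 the 2 fallers lie to the right of every riser, and crosses mark genes under the count filter.

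The proteases that clade B serpins meet in epithelia were counted in 2 lists. Of 18 epithelial serine proteases 11 were tested, of which 7 rose, none fell and 4 were not called (median fold change 0.51, beside 0.00 over all genes). Among all genes tested, 20.8% rose and 21.9% fell. TMPRSS11E, a membrane-bound protease of squamous epithelium, rose from 6.16, 6.56 and 6.54 CPM to 23.5, 25.1 and 26.9 CPM, a log2 fold change of 1.97 with edgeR adjusted p = 1.54e-05. TMPRSS4 rose by 0.82. ST14 (matriptase) had a log2 fold change of −0.16 and was not called. Of 11 cysteine cathepsins 10 were tested, and 4 rose, none fell and 6 were not called (median 0.21). The 4 of 10 called are close to the 42.7% called either way over all genes tested. CTSO rose by 1.24 and CTSF by 0.77. Of the cathepsins named above as targets of SERPINB13, CTSK rose by 0.82 (edgeR adjusted p = 0.0335) from a low level, 0.890 to 1.57 CPM, and CTSL at 0.15 was not called. CTSV (0.20), CTSS (0.08) and CTSB (−0.06) were not called either. The granule proteases of leukocytes, classical targets of SERPINB1, SERPINB6, SERPINB9 and SERPINA1, were all under the filter, and 6 of these 11 genes had no count in any library, ELANE among them.

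SERPINH1 (HSP47), the chaperone that holds the collagen triple helix together in the endoplasmic reticulum, lies on chromosome 11 at 75562056 to 75572783. It fell, from 133.5, 133 and 134 CPM in siControl to 104, 96.3 and 96.7 CPM in siNAMPT. Every siNAMPT library lay well below the narrow band of the controls. The log2 fold change was −0.43 (SE 0.05), edgeR adjusted p = 0.000777. Of 16 genes that act with it on procollagen 13 were tested, of which 3 rose, 4 fell and 6 were not called (median −0.04). PPIB, the cyclophilin of the prolyl 3-hydroxylase complex, fell by 0.83 on the log2 scale, from 354.5 ± 18.2 to 199.8 ± 12.7 CPM (SD, n = 3). PLOD3, a lysyl hydroxylase, fell by 0.39, while FKBP14 rose by 0.36 and COLGALT1 by 0.21. Of the prolyl 4-hydroxylase subunits tested, P4HA2 fell by 0.28 on the log2 scale (edgeR adjusted p = 0.0237), while P4HA1 at 0.00 (SE 0.16) and P4HB at 0.38 (SE 0.14, edgeR adjusted p = 0.0652) were not called.

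Secreted serpins of blood plasma were scarce. SERPINA1 (alpha-1-antitrypsin), the main plasma inhibitor of neutrophil elastase, was the only clade A gene tested. It had 2.12, 1.37 and 2.21 CPM in siControl and 1.89, 1.47 and 2.03 CPM in siNAMPT, which overlap, and its log2 fold change of −0.08 (SE 0.24) was not called (edgeR adjusted p = 0.825) and took either sign when single libraries were left out. SERPINF1 (PEDF), a secreted factor that curbs vessel growth, had 17, 10 and 10 counts in siControl and 45, 15 and 36 in siNAMPT. It passed the test, with a log2 fold change of 1.34 (SE 0.41) and edgeR adjusted p = 0.0338, yet its groups overlap. The call was lost without siControl replicate 2 (edgeR adjusted p = 0.0989), siControl replicate 3 (0.0983), siNAMPT replicate 1 (0.108) or siNAMPT replicate 3 (0.0853).

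The other 19 serpins were under the filter. No count in any library was found for SERPINA4, SERPINA7, SERPINA9, SERPINA10, SERPINA11, SERPINA12, SERPINB9, SERPINB11, SERPIND1, SERPINE3 and SERPINI2, 11 genes that include heparin cofactor II (SERPIND1) and the granzyme B inhibitor (SERPINB9). At these depths a count of 0 allows a level of up to 0.132 to 0.152 CPM per library, taking 3 counts as the limit and counting error alone. A further 8 had a few counts. SERPINB10 had 6, 12 and 8 in siControl and 10, 6 and 4 in siNAMPT. SERPING1, the inhibitor of complement C1, had 2, 2 and 0 against 3, 4 and 1, and SERPINC1 (antithrombin) had 2 counts in all. SERPINA2, SERPINA3, SERPINA5, SERPINA6 and SERPINB12 reached at most 6 in any library. No direction can be read from them.

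Per length, SERPINB5 had the highest FPKM in both groups. In siControl SERPINB2 (46.8), SERPINB1 (37.7), SERPINB6 (25.7) and SERPINB13 (23.8) came after it. In siNAMPT the order of these 4 was SERPINB6 (34.6), SERPINB1 (29.9), SERPINB2 (28.3) and SERPINB13 (27.4). Close neighbours were not separated: SERPINB6 at 23.0 to 28.1 FPKM and SERPINB13 at 22.3 to 26.5 FPKM overlapped between libraries in siControl, as did SERPINB2 at 19.8 to 32.9 FPKM, SERPINB1 at 28.7 to 31.9 FPKM and SERPINB13 at 25.4 to 29.5 FPKM in siNAMPT. The order depends on the lengths behind FPKM, which for several genes exceed those of a single GENCODE 29 transcript (9098 against 3114 bases for SERPINB13, 3585 against 2619 for SERPINB1). In CPM per kb of that transcript SERPINB5 was still first, but SERPINB13 stood at 70.0 in siControl and 79.6 in siNAMPT, above SERPINB1 (52.1 and 40.7) and SERPINB6 (26.8 and 35.6). SERPINB2 stood at 91.5 and 54.6 on that scale, above SERPINB1 and SERPINB6 in both groups, so its place behind them in siNAMPT holds for FPKM only.

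A last feature compared was the word ACCATA in the annotated 3′ UTR, a word taken from earlier results of these data. It occurs in 2 of the 16 tested serpins (12.5%), of which 1 fell and 1 rose. The median 3′ UTR was 733 bases in these serpins and 1118 bases in tested coding genes, and the shares given here were not adjusted for length. Among tested coding genes the word occurs in 2713 of 12087 (22.4%), and the median fold change was −0.19 with the word and 0.01 without it. Because the word was taken from these same data, a difference between these medians may be built into its choice, and it was not tested. The site in SERPINB8, the serpin with the largest relative fall, is shown 5′ to 3′ on the plus strand (GRCh38, GENCODE 29), with the word in capitals.
SERPINB8, chr18:63989127-63989156: tacatacatggaACCATAcatcatctatgc
It lies 1861 bases after the stop codon. The other fallers, SERPINB1, SERPINB2 and SERPINH1, do not hold the word.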

How the data were processed

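The deposited table gives, per the file headers, whole-number counts per gene and library and FPKM values, which equal the count over a gene length and the library total. The aligner, the counter and the annotation were not given in the sources used here. Builds named in the submitters' processing notes are GRCh38 and mm10. Groups and replicate numbers came from the sample titles. All 35 gene IDs are in GENCODE 29, 32 at an identical position, so coordinates are GRCh38.

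Counts were tested with edgeR 4.0.16 (R 4.3.3; filterByExpr, TMM, glmQLFit, glmQLFTest, two-sided), siNAMPT against siControl, with Benjamini-Hochberg adjustment over 15213 genes at 0.05. TMM factors were 0.988 to 1.02. SE is the log2 fold change over the root of F. The test was checked on simulated data. DESeq2 1.42.0, its size factors, no filter, limma 3.58.1 on log2(FPKM + 1) and log2(FPKM + 0.1) over genes reaching 1 FPKM in 3 libraries, a replicate block and leaving out each library were the alternatives.

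The members and all lists were chosen with earlier results of these data known. Named genes are NAMPT, the serpins, 19 preset partners and, per list, up to 2 risers and 2 fallers with the largest change and a mean reaching 1 FPKM in either group; P4HA2 and CTSK were added after their values were seen. All 116 partner and 47 marker symbols matched. No 2 libraries were identical, and those of a group differed beyond sampling (chi-square of 11.6 to 16.7 per gene). Some genes that these rules take are not reported here.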

Additional observations from a re-analysis of the deposited data

How the results depend on the processing

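The 4 fallers were called under every alternative run. The count of risers was 9 with DESeq2, with RLE size factors, with no filter and with the replicate block, and 7 to 9 when single libraries were left out. It was 4 with limma on log2(FPKM + 1) and 4 on log2(FPKM + 0.1), where only 10 serpins passed the FPKM filter and all 10 kept their call or lack of one. SERPINA1 changed sign when libraries were left out, with values from −0.27 to 0.05 (0.0074, 0.0485 and 0.0452 without siControl replicate 1, siControl replicate 3 and siNAMPT replicate 2). Risers among partner genes numbered 19 to 28 and fallers 12 to 15 over all alternatives, against 27 and 14. Genes called in the whole table numbered 5145 to 6494, against 6500.

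Same-numbered libraries shared little (correlations of deviations 0.098, −0.006 and 0.08), so numbers were not taken as pairs. Differently numbered libraries of the groups gave −0.125 to 0.055, so 0.098 and 0.08 were the highest values. With the replicate block 6336 genes were called and no serpin call changed. Depth limits the serpins under 5 CPM, of which SERPINB4 and SERPINF1 lost calls as given above.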

Other observations

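Other inhibitors and the clotting genes that serpins regulate gave mixed changes, beside 20.8% of all genes tested that rose and 21.9% that fell. Of 21 protease inhibitors outside the serpin family 12 were tested, of which 5 rose, 2 fell and 5 were not called (median 0.13). SPINK5, the inhibitor of epidermal kallikreins, rose by 0.40 and SPINT1, the inhibitor of matriptase, by 0.29, whereas PI3 (elafin) fell by 1.03 on the log2 scale. SLPI had 0.51 (SE 0.21, edgeR adjusted p = 0.0863) and CSTB 0.06, neither of which was called. Among 18 coagulation genes 11 were tested, of which 3 rose, 2 fell and 6 were not called. F3 (tissue factor), the cell-surface trigger of clotting, fell from 999.6, 1020 and 1073 CPM to 572, 605 and 584 CPM, a log2 fold change of −0.81 with edgeR adjusted p = 2.9e-05. F2R, a thrombin receptor, fell by 1.05 on the log2 scale, while PROCR, the protein C receptor, rose by 0.26. THBD (0.13) and F2RL1 (−0.08) were not called. Of 7 proprotein convertases 5 were tested: MBTPS1 rose by 0.25, PCSK6 (−1.10) and PCSK5 (−0.56) fell, and FURIN, the target of SERPINB8, had 0.19 (edgeR adjusted p = 0.0518) and was not called.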
